A study of Mus musculus with 8 samples.

Results

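The 8 receptors and integrin subunits described here place B cells within lymphoid tissue or carry them out of it: S1pr1, Ccr7, Ccr6, Cxcr4, Cxcr5, Gpr183, Itgb7 and Itga4. They were found by symbol in the deposited count tables, where all 8 of the 8 were present among 55401 listed genes, and all 8 passed the low count filter in every comparison below. RNA was sequenced in 8 mouse libraries (C57BL/6 strain) in 4 groups of 2. Germinal center B cells sorted by FACS from the spleen came from mice with a B cell knockout of Jmjd1c, labelled Jmjd1c B KO (GCB KO), and from wild-type mice (GCB WT). Splenic B cells enriched with a pan-B biotin reagent and streptavidin beads and then stimulated in vitro, labelled activated B cells, came from the same 2 genotypes (PanB KO and PanB WT). The product of Jmjd1c belongs to the Jumonji demethylases of histone H3 lysine 9. The sources used here do not give the Cre driver, the deleted exons, the stimulus, the age of the mice or whether the 2 libraries of a group came from separate mice, so p-values measure the spread between these libraries, which may be technical.

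B cells read their position from gradients. Chemokine receptors steer them between the follicle, the T cell zone and the dark and light zones of the germinal center, GPR183 (EBI2) follows an oxysterol to the outer follicle, and S1PR1 follows sphingosine 1-phosphate out of the tissue into blood and lymph. Integrin α4 paired with β7 binds MAdCAM-1 on vessels of the gut and VCAM-1. Germinal center B cells are known to hold S1PR1, CCR7 and GPR183 low while they stay in the follicle, and CXCR4 is known to hold dividing cells in the dark zone.

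Libraries held 8777425 to 11414559 counts on genes. Jmjd1c itself had 1341 and 1330 counts in GCB KO libraries, against 1850 and 1950 in GCB WT libraries, and 1329 and 1520 in PanB KO libraries, against 2656 and 2852 in PanB WT libraries. It was lower in KO by 0.20 and 0.94 on the log2 scale, and a count over the whole gene does not show whether the deleted part is absent. The sorted libraries carried the defining germinal center genes: the summed level of 9 such markers was 3998 to 4016 CPM (counts relative to library size, with TMM scaling over the 8 libraries) in GCB KO and 5824 to 5933 CPM in GCB WT, against 229 to 241 CPM in PanB KO and 232 CPM in both PanB WT libraries. The summed level of 10 naive and memory B cell markers was 8773 to 8908 CPM in GCB KO and 2888 to 2912 CPM in GCB WT. In PanB libraries it was 15238 to 15819 CPM in KO and 14616 to 14621 CPM in WT. This sum, to which Ighm and Ighd contribute most, was higher in the libraries labelled activated than in the sorted cells, while Cr2 was higher in GCB than in PanB in both genotypes and Fcer2a was so in KO. In the same libraries Mki67, a marker of division, was at a mean of 79.2 CPM in PanB KO and 69.3 CPM in PanB WT, against 2236 CPM in GCB KO and 2699 CPM in GCB WT. Mki67 is among the 9 germinal center markers and contributed most to their sum in GCB. Its own log2 fold change, KO against WT in GCB, was -0.27, and over the 9 markers the values ran from -0.22 (Fas) to -1.76 (Gcsam). Mitochondrial transcripts took 9.20% and 9.52% of counts in GCB KO libraries, against 5.51% and 5.27% in GCB WT libraries.

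Promoter sequences are shown for 3 of the genes, chosen after their values were seen, as an example of members that moved alike and one that moved the other way: Itgb7 and Itga4, whose products pair on the cell surface and whose transcripts were both higher in GCB KO, and Cxcr4, whose transcript was lower. Each window runs from 250 bases before to 50 bases after the RefSeq transcription start (GRCm38.p6), 5′ to 3′ on the gene's strand, with matches to CACCC (read on either strand, so also as GGGTG) in capitals. CACCC is the core of the box that Krüppel-like factors such as KLF2 bind.
Itgb7, chr15:102231886-102232185, minus strand: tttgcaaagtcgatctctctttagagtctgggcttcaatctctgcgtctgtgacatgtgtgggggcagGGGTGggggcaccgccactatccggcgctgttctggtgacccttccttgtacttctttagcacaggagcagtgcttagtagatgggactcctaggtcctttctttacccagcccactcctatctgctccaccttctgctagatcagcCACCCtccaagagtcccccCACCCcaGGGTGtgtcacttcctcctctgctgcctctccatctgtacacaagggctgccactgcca
Itga4, chr2:79255176-79255475, plus strand: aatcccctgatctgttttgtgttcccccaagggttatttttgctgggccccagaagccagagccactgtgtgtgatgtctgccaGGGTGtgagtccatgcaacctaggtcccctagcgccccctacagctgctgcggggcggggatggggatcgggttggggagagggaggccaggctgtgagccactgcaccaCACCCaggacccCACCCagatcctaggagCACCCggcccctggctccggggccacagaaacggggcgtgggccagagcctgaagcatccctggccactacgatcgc
Cxcr4, chr1:128592250-128592549, minus strand: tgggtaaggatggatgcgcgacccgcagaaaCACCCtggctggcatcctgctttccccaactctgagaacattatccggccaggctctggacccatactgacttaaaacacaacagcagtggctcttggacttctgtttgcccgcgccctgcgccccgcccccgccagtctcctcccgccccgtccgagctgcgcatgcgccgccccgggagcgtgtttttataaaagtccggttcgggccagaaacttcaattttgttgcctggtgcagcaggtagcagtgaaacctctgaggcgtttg
The Itgb7 window held 4 matches and the Itga4 window held 4, against 1 in the Cxcr4 window, and no match overlapped another. CACCC occurred in 57.5% of 32841 RefSeq promoter windows of this length, and 3.1% held at least 4 matches. Windows were found for 5 of the 8 genes. The Gpr183 window and both Ccr6 windows held no CACCC, and both transcripts were also higher in GCB KO. With Cxcr4 the only lower gene among these 5, the windows cannot show whether match count goes with direction of change. A forkhead core, TGTTTAC, was in none of these windows and in 3.65% of all windows, and the palindrome TTCCNNGAA, of the kind that STAT proteins and BCL6 bind, was in 1 Ccr6 window and in 4.81% of all. A match describes letters in a window and does not show that a factor binds there. S1pr1, Ccr7 and Cxcr5 had no window in the table used.

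The question asked in germinal center B cells was which of the 8 transcripts differ between KO and WT. Of the 8, 7 were higher in KO and 1, Cxcr4, was lower, at an adjusted p under 0.05 in edgeR's quasi-likelihood test with Benjamini-Hochberg adjustment over 13350 genes. In this comparison 50.2% of all tested genes passed (25.1% higher and 25.1% lower), so passing is by itself common. The members' median log2 fold change was 1.91, against -0.0044 over all tested genes, and 6 of the 8 passed at more than 2-fold, against 8.98% of all genes. The KO and WT libraries did not overlap for any of the 8, which held for 72.8% of all tested genes and so says little by itself with 2 libraries a group.

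Ccr7, the receptor for CCL19 and CCL21 that draws B cells toward the T cell zone, had 67.1 and 70.2 CPM in GCB KO libraries, against 8.27 and 9.01 CPM in GCB WT libraries. Both KO libraries were several times above both WT libraries. The log2 fold change was 2.99 (SE 0.107, edgeR quasi-likelihood, Benjamini-Hochberg adjusted p = 1.36e-166). Ranked from the top among the 13350 tested genes, Ccr7 stood at place 106. The gene lies on chromosome 11 (GRCm38, 99144196 to 99155077, minus strand).

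Ccr6, the receptor for CCL20, found on naive and memory B cells, had 73.6 and 63.6 CPM in GCB KO libraries, against 10.9 and 8.10 CPM in GCB WT libraries. The groups did not overlap, although the 2 KO libraries were less alike than for Ccr7. The log2 fold change was 2.87 (SE 0.105), at place 125 from the top, and the gene lies on chromosome 17 (8236043 to 8257141, plus strand).

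S1pr1 (chromosome 3, 115710433 to 115715072, minus strand), the receptor that carries lymphocytes toward sphingosine 1-phosphate in blood and lymph, had 103 and 109 CPM in GCB KO libraries, against 22.9 and 24.2 CPM in GCB WT libraries. The groups stood far apart, and the log2 fold change was 2.17 (SE 0.0764, 95% interval 2.02 to 2.32). S1pr2, the receptor that confines germinal center B cells to the follicle center, went the other way in the same libraries, with 304 and 294 CPM in GCB KO, against 406 and 412 CPM in GCB WT (log2 fold change -0.45, SE 0.0366). Per kilobase of exon, S1pr1 stood at 0.886 and 0.968 of the S1pr2 level in GCB KO libraries and at 0.148 and 0.154 of it in GCB WT libraries. This ratio is taken within a library and does not depend on how libraries are scaled. With 2 libraries against 2, an exact two-sided permutation test cannot give a p below 0.333, so it is a description.

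Gpr183, which guides B cells to the outer follicle, had 45.8 and 45.0 CPM in GCB KO libraries, against 12.6 and 11.1 CPM in GCB WT libraries. Both KO libraries lay above both WT libraries, and the log2 fold change was 1.95 (SE 0.112). The gene lies on chromosome 14 (121952551 to 121965195, minus strand).

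**Figure D1:**
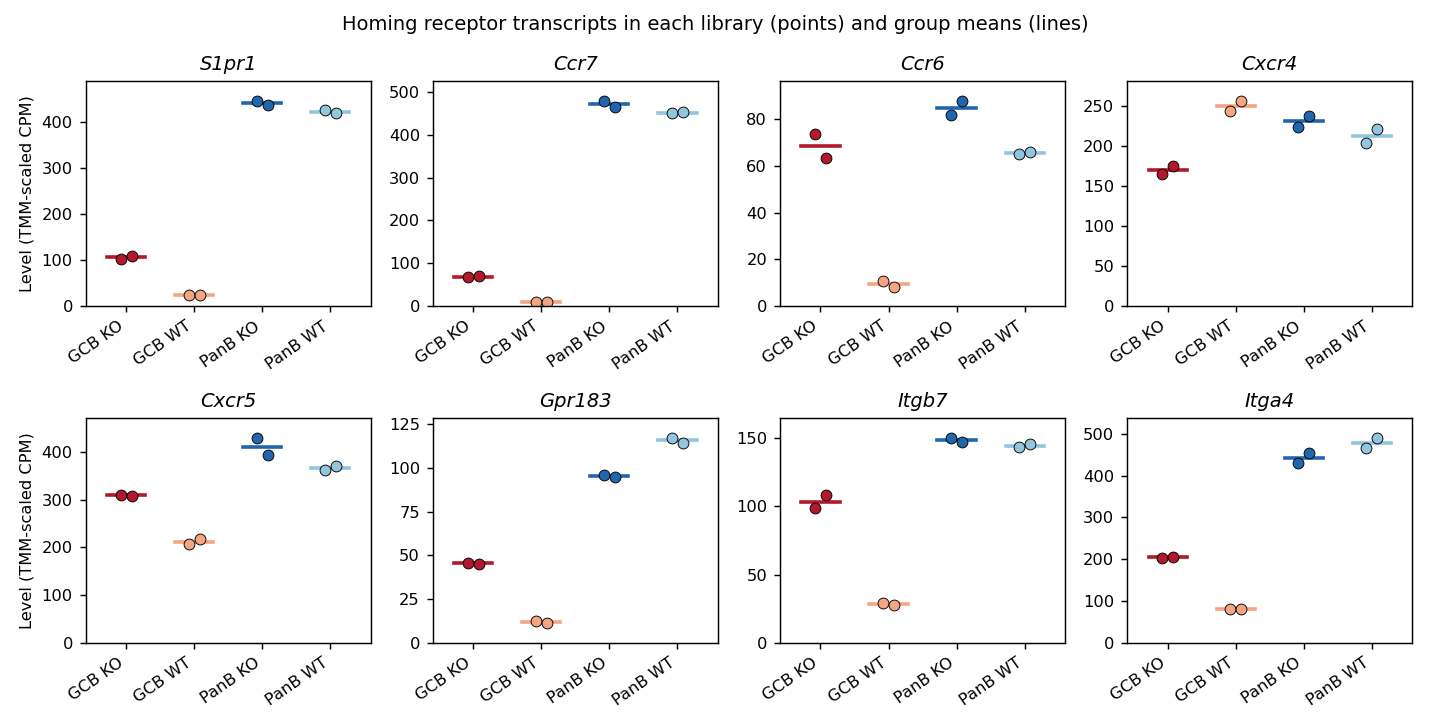
Level of each receptor in every library, in CPM on an axis from 0, with 1 point per library and groups in the order GCB KO, GCB WT, PanB KO and PanB WT. In GCB, 7 genes lay higher in both KO libraries than in both WT libraries, while Cxcr4 had 165 and 174 CPM in KO, against 244 and 255 CPM in WT.

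The 2 integrin subunits moved together. Itgb7 (chromosome 15, 102215995 to 102231944, minus strand) had 98.5 and 108 CPM in GCB KO libraries, against 28.9 and 27.5 CPM in GCB WT libraries (log2 fold change 1.88, SE 0.0739). Itga4 (chromosome 2, 79255426 to 79333123, plus strand) had 202 and 206 CPM in GCB KO libraries, against 80.8 and 80.4 CPM in GCB WT libraries (log2 fold change 1.35, SE 0.050). Both KO libraries exceeded both WT libraries for each subunit. Itgb1, the other β subunit that pairs with α4, was lower, with 67.5 and 67.3 CPM in GCB KO, against 109 and 101 CPM in GCB WT. Its log2 fold change was -0.63. Per kilobase of exon, the Itgb7 level was 2.15 and 2.37 times the Itgb1 level in GCB KO libraries and 0.392 and 0.402 times it in GCB WT libraries. In PanB libraries this ratio was 2.43 and 2.36 in KO and 2.48 and 2.66 in WT, near the GCB KO values. Of the exon length of Itga4, 8.04% overlaps exons of Cerkl on the opposite strand. The counter and its strand setting are not given, so whether reads there were counted or set aside as ambiguous is not known.

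Cxcr4 and Cxcr5 moved by less. Cxcr4 (chromosome 1, 128588199 to 128592293, minus strand), the CXCL12 receptor, had 165 and 174 CPM in GCB KO libraries, against 244 and 255 CPM in GCB WT libraries, a log2 fold change of -0.55 (SE 0.0421). Cxcr5 (chromosome 9, 44511787 to 44561877, minus strand), the CXCL13 receptor that brings B cells into follicles, had 310.3 and 307 CPM in GCB KO libraries, against 207 and 217 CPM in GCB WT libraries, a log2 fold change of 0.55 (SE 0.0393). The changes were of nearly the same size in opposite directions. Per kilobase of exon, Cxcr4 stood at 0.978 and 1.05 times Cxcr5 in GCB KO libraries and at 2.17 times it in both GCB WT libraries. In PanB libraries the ratio averaged 1.04 ± 0.111 in KO and 1.07 ± 0.0448 in WT (SD, n = 2 each). For Cxcr5, 3.3% of the exon length overlaps Bcl9l on the opposite strand.

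Other cell types' markers moved with these changes. In GCB KO, 9 of 9 germinal center markers were lower and 9 of 10 naive and memory B cell markers were higher than in GCB WT, with the sums given above. Summed monocyte and macrophage markers were 227 to 252 CPM in GCB KO, against 105 to 112 CPM in GCB WT (10 of 12 tested were higher). Erythroid markers were 62.5 to 76.4 CPM in GCB KO, against 7.54 to 9.74 CPM in GCB WT. Dendritic cell markers were 99.5 to 107 CPM in GCB KO, against 67.6 to 71.5 CPM in GCB WT. Most of that sum was Flt3, with means of 72.1 CPM in GCB KO and 57.8 CPM in GCB WT. Plasma cell markers were 830 to 834 CPM in GCB KO, against 685 to 704 CPM in GCB WT. Their largest term, Jchain, did not differ (492.8 CPM in GCB KO, 497.3 CPM in GCB WT), while Irf4 (123 against 48.0 CPM) and Xbp1 (186 against 141 CPM) were higher in KO. Pan-B lineage markers were 9740 to 9794 CPM in GCB KO, against 7720 to 7823 CPM in GCB WT. T cell markers summed to 104 to 112 CPM in GCB KO, against 97.2 to 100.1 CPM in GCB WT, most of it Lck. Without Lck, a choice made after seeing the data, the other 16 summed to 25.0 to 26.5 CPM in GCB KO, against 6.60 to 9.29 CPM in GCB WT, and 4 of 7 tested T cell markers were higher (Cd4, Zap70, Trac and Cd5), with Cd3e, Cd8b1 and Bcl11b at 0 in both GCB WT libraries. The part of naive B cells or of other cells in the receptor values was not tested, and in bulk libraries a different share of cells and a different RNA level per cell cannot be told apart.

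In activated B cells the question was whether the same 8 transcripts differ between KO and WT there. Of the 8, 1 was higher in KO, 1 was lower and 6 did not pass, while 6.27% of 14110 tested genes passed (4.85% higher, 1.42% lower). The members' median log2 fold change was 0.0639, against 0.000623 over all genes, and 0 of the 8 passed at more than 2-fold, against 1.74% of all genes. Ccr6 had 81.8 and 87.6 CPM in PanB KO libraries, against 64.9 and 66.1 CPM in PanB WT libraries. Its log2 fold change was 0.37 (SE 0.0693, edgeR quasi-likelihood, Benjamini-Hochberg adjusted p = 0.000795). Gpr183 had 96.2 and 95.1 CPM in PanB KO libraries, against 117 and 115 CPM in PanB WT libraries. Its log2 fold change was -0.27 (SE 0.0619, edgeR adjusted p = 0.00578), opposite in sign to its change in GCB, and it did not pass in DESeq2 (adjusted p = 0.126, against 0.000246 to 0.126 over all alternatives). The KO and WT libraries did not overlap for any of the 8, the 6 that did not pass included, and this held for 47.8% of all tested genes.

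The other 6 had narrow intervals around small values. S1pr1 had 444 and 437 CPM in PanB KO libraries, against 425 and 418.5 CPM in PanB WT libraries, and its log2 fold change had a 95% interval of -0.04 to 0.17. Ccr7 had 478 and 465 CPM in PanB KO libraries, against 450.1 and 454 CPM in PanB WT libraries, with an interval of -0.05 to 0.17. These intervals lie well below the changes of the same genes in GCB. Itgb7 had 150 and 147 CPM in PanB KO, against 143 and 146 CPM in PanB WT (interval -0.08 to 0.16). Itga4 had 429 and 454 CPM in PanB KO, against 466 and 489.7 CPM in PanB WT (interval -0.22 to 0.00). Cxcr4 had 223 and 238 CPM in PanB KO, against 203 and 221 CPM in PanB WT (interval 0.01 to 0.24, adjusted p = 0.242 in edgeR). For these 3 genes the differences were small beside the gaps seen in GCB, and none passed. Cxcr5 had 428.5 and 392 CPM in PanB KO, against 362 and 370.4 CPM in PanB WT, with a log2 fold change of 0.17. Its adjusted p was 0.075 in edgeR from the 4 PanB libraries. It passed when all 8 libraries shared a fit (adjusted p = 0.0137) and without the second PanB KO library (log2 fold change 0.23, adjusted p = 0.0107), and its adjusted p ran from 0.00891 to 0.572 over all alternatives.

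Summed neutrophil markers were 1564 to 1909 CPM in PanB KO, against 423 to 492 CPM in PanB WT (9 of 9 higher), and monocyte and macrophage markers were 1674 to 1826 CPM in PanB KO, against 1134 to 1182 CPM in PanB WT (7 of 11 tested higher). Their part in the Ccr6 and Gpr183 values was not tested.

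**Figure D2:**
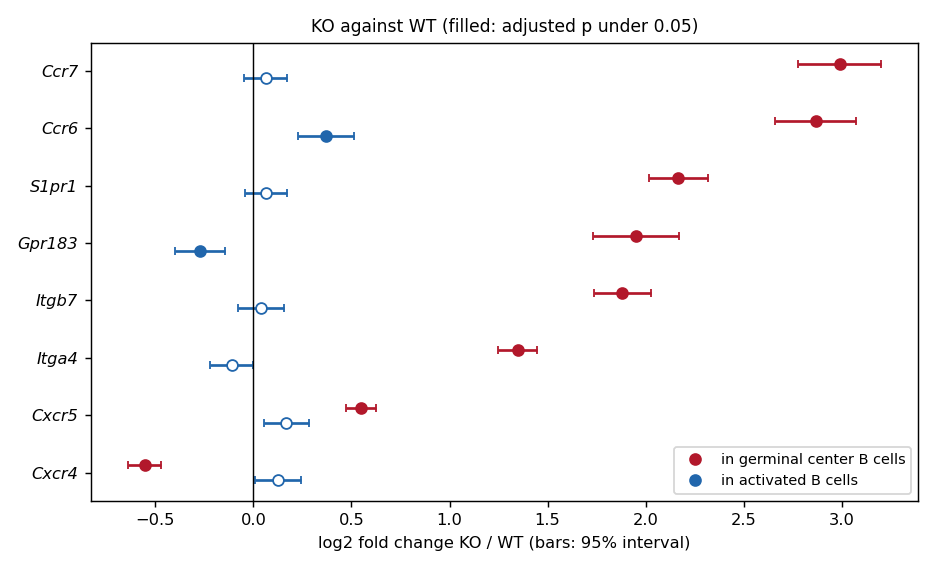
KO against WT log2 fold change of each receptor in germinal center B cells and in activated B cells, with 95% intervals from edgeR. Filled points passed at an adjusted p under 0.05: all 8 in germinal center B cells, and Ccr6 and Gpr183 in activated B cells.

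The difference between the KO change in GCB and that in PanB was itself tested in 1 fit of all 8 libraries. It was positive and passed for 7 members and negative and passed for Cxcr4, where 31.2% of 14992 genes passed (17.5% positive, 13.8% negative). It was largest among the 8 for Ccr7, at 2.92 on the log2 scale (SE 0.109), followed by Ccr6 at 2.49 and Gpr183 at 2.22. For Cxcr5 it was 0.38 (SE 0.0689, edgeR quasi-likelihood, Benjamini-Hochberg adjusted p = 3.88e-06), and for Cxcr4 it was -0.68 (SE 0.0712). The members' median difference was 1.97, against 0.0344 over all genes, and 6 of the 8 passed with a difference of more than 2-fold, against 7.84% of all genes.

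Set against activated B cells of the same genotype, germinal center B cells had lower levels of most of these transcripts. In WT, 7 of the 8 were lower in GCB than in PanB and 1, Cxcr4, was higher, while 82.2% of 14426 genes passed (40.3% higher, 41.8% lower). The log2 differences in WT were -5.71 for Ccr7, -4.17 for S1pr1, -3.31 for Gpr183, -2.81 for Ccr6, -2.58 for Itga4, -2.37 for Itgb7, -0.80 for Cxcr5 and 0.23 for Cxcr4. At more than 2-fold, 6 of the 8 passed, against 44.1% of all genes. In KO, 8 of the 8 were lower in GCB than in PanB, while 78.7% of 14307 genes passed (39.2% higher, 39.5% lower). The log2 differences in KO were -2.77 for Ccr7, -2.05 for S1pr1, -1.10 for Itga4, -1.07 for Gpr183, -0.51 for Itgb7, -0.43 for Cxcr4, -0.40 for Cxcr5 and -0.30 for Ccr6. At more than 2-fold 4 of the 8 passed, against 37.1% of all genes. The gap between the cell types was thus smaller in KO for 7 of the 8, and for Cxcr4 it changed sign. How often the gap was smaller in KO over all genes was not counted. The share past 2-fold was also lower in KO over all genes (37.1%, against 44.1% in WT), so the 7 of 8 does not set the members apart. The Ccr6 gap in KO did not pass without the second GCB KO library (log2 difference -0.18, edgeR adjusted p = 0.0716). The tests of these changes in gap are those of the difference of KO changes given above, since both are the same contrast of 4 group means. Neutrophil markers summed to 1.66 to 2.19 CPM in GCB KO and 0.419 to 0.728 CPM in GCB WT, far below the PanB sums above. The part of such cells in the gaps was not tested.

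**Figure D3:**
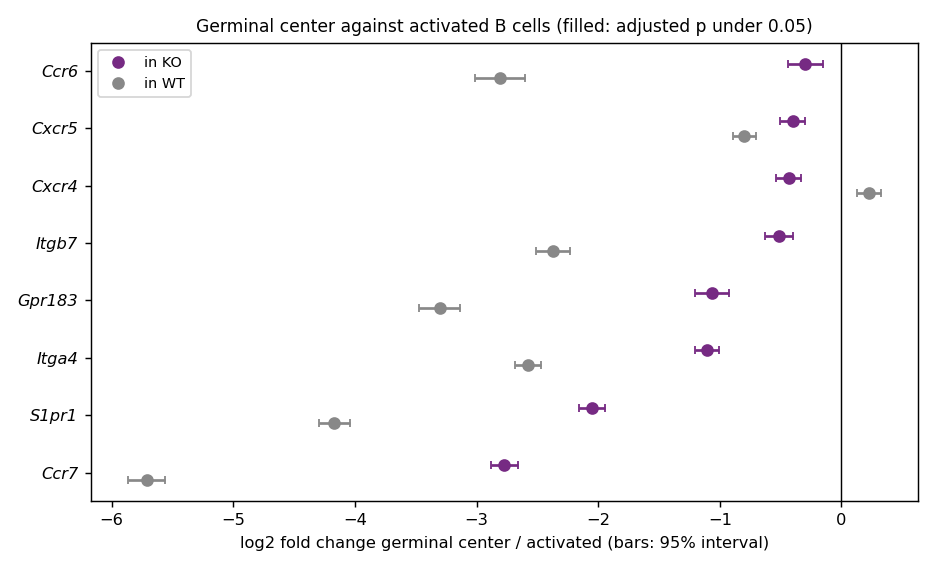
Germinal center against activated B cells, log2 difference of each receptor within KO and within WT, with 95% intervals. The KO points lay nearer 0 than the WT points for 7 of the 8 genes, while Cxcr4 was at -0.43 in KO and 0.23 in WT. The matching share over all genes was not counted.

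Ordered by level over the 4 groups, GCB WT was lowest for 7 genes and highest for Cxcr4. The share of all genes with GCB WT lowest was not counted, so this describes the members only. S1pr1, Ccr7, Cxcr5, Itgb7 and Ccr6 were highest in PanB KO, and Gpr183 and Itga4 in PanB WT. Of 24 pairs of neighbouring groups, 6 did not differ at an adjusted p under 0.05 in the fit of 8 libraries. In 5 of these 6 the neighbours were PanB KO and PanB WT, for S1pr1, Ccr7, Cxcr4, Itgb7 and Itga4. The other was GCB KO and PanB WT for Ccr6, at 68.6 ± 7.06 and 65.5 ± 0.828 CPM (SD, n = 2 each), the only neighbours whose ranges overlapped.

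Levels can be compared between genes per kilobase of exon. In GCB KO, Cxcr4 (93.8 CPM per kilobase) and Cxcr5 (92.7) stood highest, followed by Itgb7 (37.3), Ccr7 (34.7), S1pr1 (34.7), Ccr6 (29.6), Gpr183 (15.7) and Itga4 (14.6). In GCB WT, Cxcr4 (138 CPM per kilobase) was more than 2 times as high as Cxcr5 (63.6), and the other 6 lay between 4.09 and 10.2. Cxcr4 and Cxcr5 were thus the 2 highest of these transcripts in germinal center B cells of both genotypes. In PanB the order differed: Ccr7 was highest, at 238 CPM per kilobase in KO and 229 in WT, then S1pr1 at 145 in KO and 139 in WT. The order depends on the length used. With the longest transcript as the length, Itga4 in GCB KO was at 20.9 and Ccr6 at 39.1 CPM per kilobase, and Ccr6 moved from place 6 to 3. Cxcr5 (108.5) then stood above Cxcr4 (93.9) in GCB KO. In GCB WT Cxcr4 was at 138.2 and Cxcr5 at 74.4, and in PanB KO S1pr1 (144.6) and Cxcr5 (144.2) were nearly equal.

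**Figure D4:**
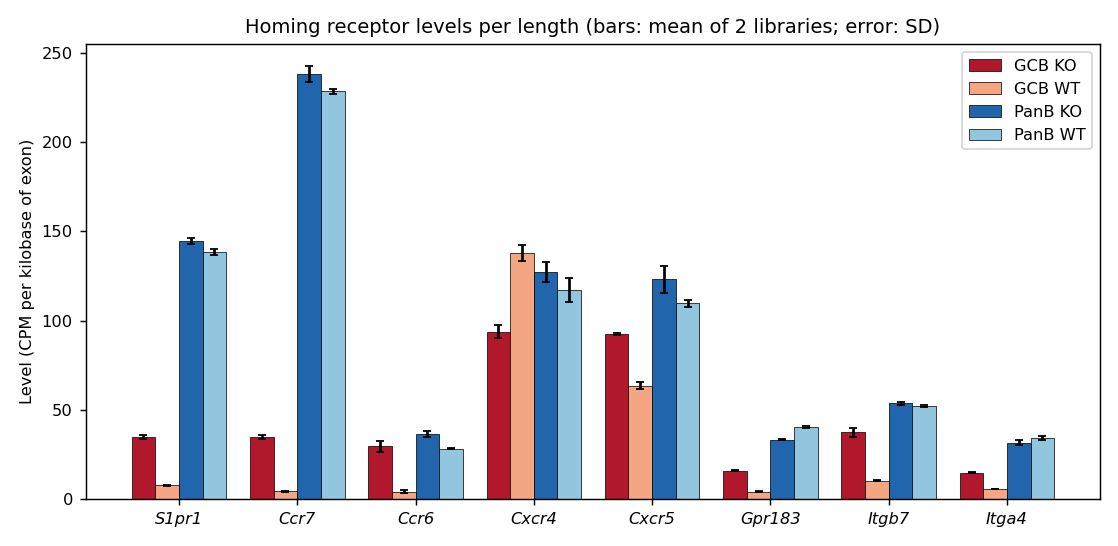
Level of each receptor per kilobase of exon (CPM per kilobase, axis from 0), with bars for the mean of 2 libraries and error bars for the SD. Ccr7 was at 34.7 in GCB KO and 4.37 in GCB WT, against 238 in PanB KO and 229 in PanB WT.

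The profiles of the 8 over the 8 libraries differed among themselves. Likeness was measured as the root mean square difference of log2(CPM + 1) after each gene's mean was removed, and a value of 0 means the same profile. Among members, Gpr183 and Itga4 were closest (0.249), then Itgb7 and Itga4 (0.281), and Ccr7 and Cxcr4 were farthest apart (2.36). Among 9460 genes averaging 50 or more counts, the profile nearest to that of S1pr1 was Dpp4 (0.0646), which encodes the peptidase CD26, with mean levels of 41.0 CPM in GCB KO, 8.73 in GCB WT, 161 in PanB KO and 172 in PanB WT. Nearest to Cxcr5 was Glmp (0.0473), then H2-Oa (0.0553), an MHC class II chaperone subunit. Nearest to Itga4 was Il10rb (0.0634), a subunit of the IL-10 receptor, and nearest to Gpr183 was Cmah (0.102), a sialic acid hydroxylase. For Ccr7 the nearest was Fam169b, at 0.356, a larger distance than the nearest gene of any other member had by this measure, which depends on the size of the changes. For Cxcr4 it was Ttc9c (0.0625), for Ccr6 Carmil1 (0.14) and for Itgb7 Kctd12 (0.0905). With Pearson correlation as the measure, 1 of the 3 genes nearest to S1pr1 was shared and 0 of 3 for each other member. By that measure, which ignores the size of the changes, Grap2 stood nearest to Ccr7 (r = 0.9996 over the 8 libraries of 4 groups, a description).

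Around the 8, other genes of migration were counted from 8 lists of 170 genes. All counts in GCB stand beside 25.1% of all tested genes higher and 25.1% lower, and a list near those shares is not set apart by its count. In GCB, 4 of 5 tested chemokine receptors outside the members were higher in KO and 1 was lower, of 20 listed. The 4 became 7 with no low count filter, 8 in the fit of all 8 libraries and 2 with at least 10 counts in every library (the cause was not tested for the joint fit; the filters change which genes are tested). Ackr4, a decoy receptor that removes CCR7 ligands, was the lower one (log2 fold change -0.74, SE 0.0859), and Ackr2, another decoy, was higher (0.93, SE 0.0909). Of 11 tested genes of sphingosine 1-phosphate sensing and metabolism, 7 were higher and 2 lower (1 lower in DESeq2 and without the first GCB WT library). Cd69, whose product pulls S1PR1 off the surface, had 102 and 106 CPM in GCB KO, against 35.3 and 38.1 CPM in GCB WT (log2 fold change 1.5, SE 0.0696). S1pr1 and its antagonist Cd69 were therefore both higher. S1pr4 was higher too (0.95, SE 0.0763). Of 9 tested genes in the list of lipid, oxysterol and orphan receptors and oxysterol enzymes, 7 were higher and 2 did not pass. The higher ones included the enzyme gene Cyp27a1 (0.52) and the receptor genes Gpr174 (1.68), Cnr2 (1.15), the cannabinoid receptor CB2, and P2ry10 (1.09).

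Of 22 tested integrins and adhesion molecules outside the members, 11 were higher in GCB KO, 4 were lower and 7 did not pass. Among the 11 were Itgam (2.19), Itgax (2.29) and Itgad (2.35), integrins known from myeloid cells, whose markers were higher in the same libraries as given above, and the part of such cells was not tested. Pecam1, an adhesion molecule of the immunoglobulin family, was higher (log2 fold change 1.11, SE 0.0623), as was Cd22 (0.63, SE 0.0289), a lectin of B cells that binds sialic acid. Itgae, the α subunit that also pairs with β7, did not pass in GCB (0.24, SE 0.472, edgeR adjusted p = 0.708). It was near the floor, with 0.97 and 1.66 CPM in GCB KO, against 1.15 and 1.09 CPM in GCB WT, so a change could easily be missed. Of 8 listed ligands of the members, Vcam1 alone was high enough to test in GCB and was higher in KO (3.77, SE 0.425). It is also in the list of monocyte and macrophage markers, where C1qa, C1qb and C1qc were higher by 3.61 to 3.86 on the log2 scale, and the part of those cells in it was not tested.

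The lists of signalling genes lay nearer those shares. Of 35 tested genes of G protein signalling and desensitization, 12 were higher, 12 lower and 11 did not pass, against 50.2% of all genes passing, with a median log2 fold change of -0.02. Gna13, the G protein α subunit through which S1PR2 confines germinal center B cells, was lower (-0.83, SE 0.0390), as was Rgs13 (-0.99, SE 0.0516), a regulator that damps chemokine signals. Of 31 tested genes of Rac, Rap and integrin activation, 11 were higher and 9 lower, with a median of 0.01. Cytip (1.79), Rasgrp2 (0.83) and Rassf5 (0.83), the last 2 of which act in Rap1 signalling to integrins, were among the higher ones. Rac1 was counted there although 51.4% of its exon length overlaps Daglb on the opposite strand, so its value is uncertain.

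Of 16 tested transcription factors with known receptor targets, 9 were higher in GCB KO and 6 lower. Klf2, an activator of S1pr1 in T cells, had 202 and 197 CPM in GCB KO, against 41.8 and 43.2 CPM in GCB WT (2.23, SE 0.0577). Bach2 (-0.84, SE 0.0383) and Pou2af1 (-0.70, SE 0.0310), both needed for germinal centers, were lower. In PanB, 0 of the 16 passed in edgeR or in DESeq2, and 3 had an unadjusted p under 0.05.

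In PanB the counts in the migration lists stand beside 6.27% of all tested genes passing, against 50.2% in GCB. At that share short lists hold few calls, and none of the 11 sphingosine 1-phosphate genes and none of the 9 genes of lipid, oxysterol and orphan receptors and oxysterol enzymes passed in edgeR or in DESeq2, and 4 of the first and 4 of the second had an unadjusted p under 0.05. Without the first PanB WT library, 3 and 2 of them passed, and without the second PanB KO library 2 transcription factors did. Of 12 tested chemokine receptors, 6 were higher, led by Ackr2 (1.95, SE 0.263), Ccr2 (1.54, SE 0.140) and Ccr3 (1.43, SE 0.168). Of 24 tested integrins and adhesion molecules, 8 were higher and 1 lower, with Itgam (68.7% of whose exon length is shared with an overlapping gene model, Gm49368) at 1.22 and Itgb2 at 0.33. DESeq2 called 3 chemokine receptors and 3 adhesion genes higher, and leaving out any 1 library left 4 or 5 adhesion genes higher. Ccr2, Ccr3 and Itgam are known from myeloid cells, whose markers were higher in the same libraries as given above, and their part in these values was not tested.

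**Figure D5:**
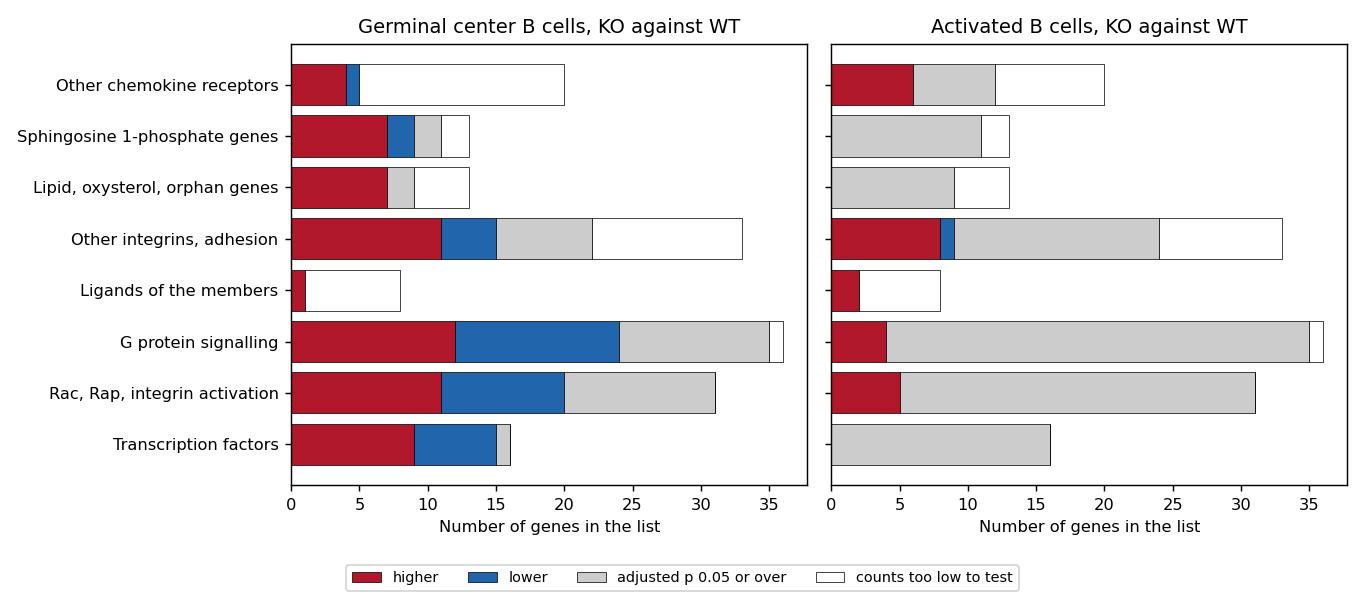
Number of genes in each of the 8 migration lists that were higher, lower, did not pass or had counts too low to test, for KO against WT in germinal center B cells (left) and activated B cells (right). In activated B cells 0 of 11 tested sphingosine 1-phosphate genes and 0 of 16 transcription factors passed, against 9 of 11 and 15 of 16 in germinal center B cells. Over all tested genes, 6.27% passed in activated B cells and 50.2% in germinal center B cells.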

How the data were processed

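The authors deposited whole-number read counts per gene for each of the 8 libraries. The submitters' processing notes name Trimmomatic, DESeq2 and the build mm10. The aligner, the counter, the strand setting and versions were not stated in the sources used here. RNA was extracted with Trizol, per the labels' protocols. The 5 summary lines of each file were left out of all library sizes and tests: of all reads listed, 47.2% to 53.9% had no feature, 4.37% to 9.23% were not unique and a further small share was ambiguous. A level of 1 CPM corresponds to 8.23 to 11 counts, so precision at low levels is set by counting.

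KO was compared with WT, and germinal center with activated B cells, from the 4 libraries of each comparison with edgeR 4.0.16 (R 4.3.3, limma 3.58.1): TMM, filterByExpr, quasi-likelihood F test, Benjamini-Hochberg adjustment, threshold 0.05. The difference of KO changes and the order of groups used all 8 libraries, and adjusted p-values for that order come from its own fit. Intervals are 95%. These tests borrow the spread across genes, so very small p-values rest on that pooling more than on 2 libraries. CPM uses 1 TMM scale over the 8 libraries. Exon lengths and positions came from GENCODE M21 (GRCm38, the assembly of mm10), and promoters from RefSeq. The procedure was also run on counts simulated with the spread fitted to these libraries, which does not test whether that spread holds between mice.

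The members and the 8 migration and 9 marker lists were chosen with earlier results of these data known. All 8 members were named, with the 3 nearest profiles of each (part of them given) and, per list, up to 3 genes with the lowest p among those that passed; S1pr2, Itgb1, Itgae and Rac1 were added as partners or for their overlap after their values were seen. Not every gene so chosen is reported here. Alternatives were DESeq2 1.42.0, other scalings and filters, a joint fit, a replicate block and leaving out each library.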

Additional observations from a re-analysis of the deposited data

Results flagged for a closer look

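The KO change differed between germinal center and activated B cells for all 8 genes when the difference itself was tested in edgeR over the 8 libraries (KO change in GCB minus KO change in PanB, log2 scale). It was 2.10 for S1pr1, 2.92 for Ccr7, 2.49 for Ccr6, 2.22 for Gpr183, 1.84 for Itgb7, 1.46 for Itga4 and 0.38 for Cxcr5. For Cxcr4 it was -0.68. For Gpr183 the 2 changes had opposite signs, 1.95 in GCB and -0.27 in PanB. Both comparisons draw on separate libraries, and the cell types also differed in how cells were obtained, which cannot be told apart from cell type here.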

How the results depend on the processing

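No member's log2 fold change changed sign in any of the 5 comparisons under any alternative, and 499 of 504 alternative values stayed on the same side of the threshold. The exceptions were Cxcr5 and Gpr183 in PanB and Ccr6 between cell types in KO, with the values given above. Same-numbered libraries did not deviate together (correlations of same-numbered deviations -0.0389 to 0.0358 over 10835 genes). With 2 libraries per group this does not show whether a replicate number marks a shared animal, day or batch. With the replicate block, Cxcr5 passed in PanB (log2 fold change 0.17, adjusted p = 0.00891 in edgeR), and the block changed no other member's call.

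Among the counts over all members, all list genes and all genes, those that moved by over 1.5 times were those of KO against WT in PanB and, for DESeq2, of the difference of KO changes. In PanB 885 genes passed, against 465 with no low count filter, 1388 with the replicate block and 305 in DESeq2. Members higher in PanB KO were 1, against 2 in the fit of all 8 libraries, 2 with the replicate block and 1 to 2 when each library was left out (2 without the second PanB KO library). Members lower were 1, against 0 in DESeq2. Genes of the migration lists lower in PanB KO were 1, against 3 with library totals, 0 with no filter, 4 in the fit of all 8 libraries, 4 with the replicate block, 0 in DESeq2 and 0 to 5 when each library was left out (0 without the first PanB KO library and 5 without the second). Genes of these lists higher in PanB KO numbered 12 in DESeq2, against 25 in edgeR. Genes whose KO change differed between cell types numbered 4685, against 2645 in DESeq2. The cause of these shifts was not tested. The alternatives for list counts and for the order of groups were chosen after seeing the data.

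Library totals in place of TMM shifted the median of all genes by -0.121 (GCB against PanB in WT) and -0.176 (in KO), and no member's direction changed. Of the genes called in PanB, 77.3% were higher in KO, against 67.3% in the fit of all 8 libraries. With 2 libraries per group, each leave-one-out fit holds a lone library that is assumed to vary like the others.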
